A study of Homo sapiens with 12 samples.

Results

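The BCL2 family genes described here are 10 transcripts that set the threshold for mitochondrial cell death: BCL2L11, BBC3, PMAIP1, BMF, BIK, BAD, BAX, BAK1, BCL2L1 and MCL1. They were chosen by gene name from a table of 59324 genes, and all 10 were found, each in 1 row, and had a mean of at least 1 TPM (transcripts per 1000000, a length-corrected share of all transcripts in a library). Expression had been measured by RNA sequencing in 12 libraries of MDA-MB-468, an established human breast cancer cell line known to lack estrogen and progesterone receptors and HER2 amplification. All libraries came from this 1 line, in 4 groups of 3. Control cells are labelled only as such, with no vehicle named. SAHA (vorinostat), which blocks zinc-dependent histone deacetylases, was given alone at 10 µM for 12 h. Sonidegib, which blocks the Hedgehog signal transducer Smoothened, was given at 10 µM as a pretreatment of 72 h, either alone or before SAHA at the dose and time above, which is called the combination here. Whether sonidegib stayed on the cells during SAHA is not given in the sources used here. No time is listed for control cells, and whether the groups were harvested after the same time in culture is not known here. The labels do not say whether the 3 libraries of a group were separate cultures, so p-values measure only the spread between these libraries, which may be technical.

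Members of the BCL2 family decide whether the outer mitochondrial membrane is breached. BAX and BAK1 are the effectors that form pores in it and release cytochrome c, BCL2L1 (BCL-xL) and MCL1 are guardians that hold effectors and activators in check, and the BH3-only proteins, which share a short helix with the rest, either activate the effectors directly or occupy the guardians. In breast epithelium the family is known for removing cells that lose growth factor signals or matrix attachment, and BCL2L11 (BIM) and BMF are the members best known in that setting. Several members are governed by transcription, among them BCL2L11, BBC3 (PUMA) and PMAIP1 (NOXA), while others such as BAD are controlled mainly by phosphorylation, which RNA does not show. The table gives 1 value per gene, so splice forms of opposite function, such as the long and short forms of BCL2L1 and MCL1, were summed.

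The sequences before the start sites of BCL2L11, BBC3 and PMAIP1 are shown because these BH3-only genes took different courses. Each set against the matching group without the drug, SAHA went with higher BCL2L11 and lower BBC3, and sonidegib with higher PMAIP1 and BBC3. The table of RefSeq start sites (GRCh38.p14) used here was matched for 8 of the 10 members, with BIK and MCL1 unmatched. It held a single start for each of these BH3-only genes, although GENCODE 29 lists 25 transcripts for BCL2L11, 6 for BBC3 and 3 for PMAIP1. By GENCODE coordinates the BCL2L11 window lies inside the gene, and the BBC3 and PMAIP1 windows reach into theirs. The windows therefore need not describe every start of these genes. The 250 bases before the start are given on the gene's own strand, from chr2:111120664-111120913 (plus strand) for BCL2L11, chr19:47232668-47232917 (minus strand) for BBC3 and chr18:59899746-59899995 (plus strand) for PMAIP1. Capitals mark exact matches, on either strand, to 7 motifs: the GC box GGGCGG, the box named after its letters CCAAT, the cAMP response element TGACGTCA, the E-box CACGTG, the AP-1 site TGAGTCA, the forkhead site GTAAACA and the TATA box TATAAA.
BCL2L11: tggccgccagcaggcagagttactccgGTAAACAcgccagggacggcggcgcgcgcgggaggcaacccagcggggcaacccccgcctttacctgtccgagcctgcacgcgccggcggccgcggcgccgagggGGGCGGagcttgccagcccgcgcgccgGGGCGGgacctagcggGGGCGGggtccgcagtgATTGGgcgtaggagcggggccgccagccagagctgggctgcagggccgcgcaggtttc
BBC3: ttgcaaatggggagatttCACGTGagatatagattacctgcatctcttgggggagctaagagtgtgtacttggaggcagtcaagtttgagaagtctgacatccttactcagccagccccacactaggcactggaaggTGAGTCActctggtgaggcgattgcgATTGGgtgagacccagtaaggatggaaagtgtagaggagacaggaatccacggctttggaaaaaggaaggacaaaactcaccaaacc
PMAIP1: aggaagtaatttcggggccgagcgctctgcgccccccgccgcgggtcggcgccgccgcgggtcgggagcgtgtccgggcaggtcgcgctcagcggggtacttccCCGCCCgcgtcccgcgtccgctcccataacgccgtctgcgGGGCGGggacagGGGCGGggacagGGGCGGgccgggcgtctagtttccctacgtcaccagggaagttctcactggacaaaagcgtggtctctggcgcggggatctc

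The BCL2L11 window held 3 GC boxes, 1 CCAAT and 1 forkhead site, and its GC content was 76.8%. The PMAIP1 window held 4 GC boxes and no other of the 7 motifs, at 72.8% GC. The BBC3 window held no GC box but 1 E-box, 1 AP-1 site and 1 CCAAT, at 49.2% GC. No match overlapped another. Among 35116 windows of the same length, 42.6% held a GC box, 32.0% a CCAAT, 6.34% the E-box, 4.20% the AP-1 site and 2.98% the forkhead site. These matches describe letters in the windows and are not evidence of binding.

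Between 13204 and 13874 genes reached 1 TPM in a library, and depth per library is unknown because TPM keep no counts. The identity of the cells was checked with marker genes: the 7 epithelial and basal breast markers reached at least 4960 TPM together in control, at least 6550 with SAHA, at least 3065 with sonidegib and at least 3308 with the combination, and the leukocyte marker PTPRC did not exceed 0.01 TPM. Of 3 receptors low in this line, PGR was listed at 0 in all 12 libraries, ESR1 lay at 0.23 to 1.76 TPM and ERBB2 at 3.05 to 26.3 TPM. Their sum was 10.1 to 12.8 TPM in control, 3.31 to 5.02 with SAHA, 24.3 to 27.1 after sonidegib and 6.08 to 7.71 after both. Of 5 leukocyte markers 1 reached the filter (CD68), and their sum lay at 3.73 to 4.67 TPM in control, 9.21 to 11.6 with SAHA, 10.7 to 12.3 with sonidegib and 8.98 to 10.1 with the combination. Of 5 fibroblast and endothelial markers 1 reached it (COL1A1), with sums of 3.48 to 4.61, 10.8 to 13.7, 5.18 to 8.12 and 9.94 to 10.4 TPM in that order. The part of these shifts in the results was not tested. A further difference divides the libraries. For 5S ribosomal RNA, 17 genes are annotated, and their TPM were 0 in each of the 6 libraries that had not received sonidegib, against a total of 1488 to 12641 TPM in each of the 6 that had. Mitochondrial ribosomal RNA made up 0.565% to 0.670% of TPM in control, 1.18% to 1.35% with SAHA, 2.06% to 2.48% with sonidegib and 2.41% to 2.86% with the combination. Every comparison across sonidegib therefore also crosses the difference in 5S ribosomal RNA, whose part in the results was not tested, whereas the effect of SAHA was measured within each set, both in cells with sonidegib and in cells without it. TPM are shares of a library, so less RNA per cell and fewer cells cannot be told apart, and a change is relative to all other transcripts. Changes are differences of log2(TPM + 1) with their standard error (SE) from limma, levels are TPM with the standard deviation (SD) over n = 3 libraries, and a gene was called at a Benjamini-Hochberg adjusted p under 0.05 over 13937 tested genes.

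Levels in control cells spanned from BAD, at 79.9 ± 9.04 TPM (SD, n = 3), to BMF, at 2.82 ± 0.868 TPM. Between them, in falling order, stood BAX at 75.4 ± 9.71, MCL1 at 59.6 ± 4.96, BAK1 at 46.5 ± 2.14, BCL2L1 at 45.9 ± 1.82, BIK at 15.4 ± 0.717, BCL2L11 at 12.3 ± 0.658, BBC3 at 4.35 ± 1.12 and PMAIP1 at 4.20 ± 1.15 TPM. Libraries of neighbours in this order overlapped for BAD and BAX, for BAX and MCL1, for BAK1 and BCL2L1, and for BBC3, PMAIP1 and BMF. The effectors and guardians thus lay at 45.9 to 75.4 TPM on average, and 5 of the 6 BH3-only genes lay below them, with BAD as the exception. In control cells the TPM of BAD exceeded those of 86.5% of the tested protein-coding genes, and the TPM of BMF those of 15.5%.

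**Figure D1:**
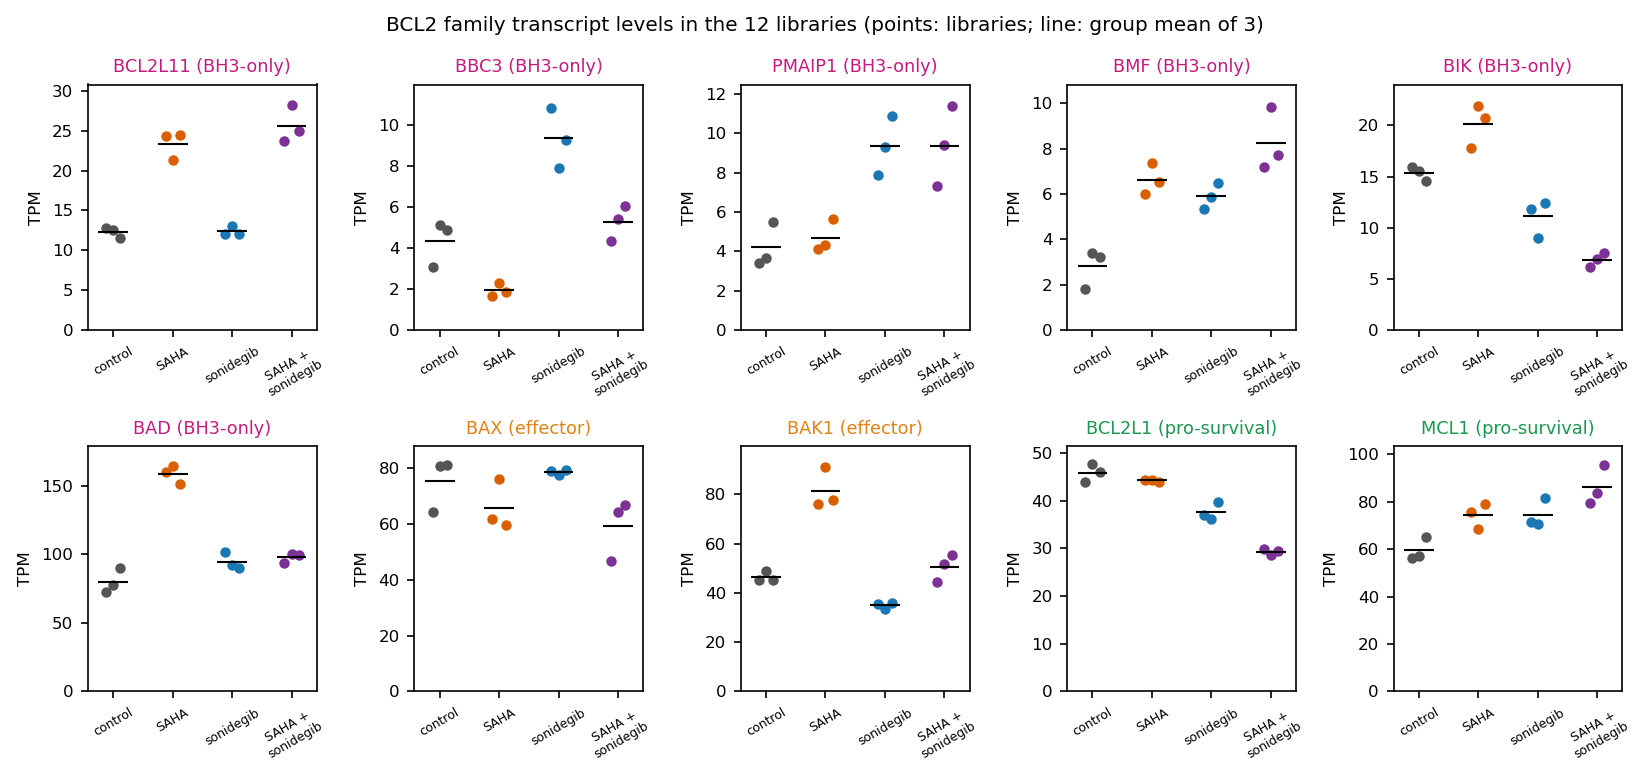
TPM of each of the 10 BCL2 family members (vertical axis, from 0, with its own scale per panel) in the 12 libraries, grouped by treatment; points are libraries and lines are means of 3. BCL2L11 is high in both groups with SAHA, PMAIP1 in both groups with sonidegib, and BAD in the SAHA group, whereas BCL2L1 is lowest and MCL1 has its highest mean in the combination.

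BCL2L11 (ENSG00000153094, GRCh38 chromosome 2, 111119378 to 111168447, plus strand), the activator BIM, overlapped control with sonidegib alone and was higher with SAHA whether or not sonidegib had been given. Its values were 12.8, 12.6 and 11.6 TPM in control, 24.3, 21.4 and 24.4 TPM with SAHA, 12.0, 13.0 and 12.1 TPM with sonidegib, and 23.7, 28.2 and 24.97 TPM with the combination. All 6 libraries with SAHA lay above all 6 without it. The log2 change was 0.87 ± 0.083 for SAHA against control (SE, adjusted p = 3.64e-06) and 0.99 ± 0.083 for the combination against sonidegib (adjusted p = 5.35e-06). Sonidegib alone gave a difference of 0.00 with a 95% confidence interval of -0.18 to 0.19 (adjusted p = 0.978). The combination against SAHA gave 0.13 ± 0.083 (adjusted p = 0.22), which passed the test after median-of-ratios scaling (0.26, adjusted p = 0.0316), 75th percentile scaling (0.23, adjusted p = 0.0427) and quantile normalization (0.25, adjusted p = 0.0374).

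BCL2L11 shares 727 exonic bases with MIR4435-2HG, a long non-coding RNA on the opposite strand. Whether the libraries kept strand is not given in the sources used here, so reads in that stretch cannot be assigned with certainty. MIR4435-2HG stood at 123, 143 and 129 TPM in control, 249, 263 and 248 TPM with SAHA, 167, 138 and 153 TPM with sonidegib, and 136, 148 and 145 TPM with the combination. Like BCL2L11 it rose with SAHA alone (0.94 ± 0.074, adjusted p = 7.96e-07), but in the combination it fell by 0.82 against SAHA (adjusted p = 4.42e-06), where BCL2L11 was not lower. In the combination, 2 of the 3 BCL2L11 values lay above the SAHA range and 1 within it, while all 3 MIR4435-2HG values lay below the SAHA range.

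**Figure D2:**
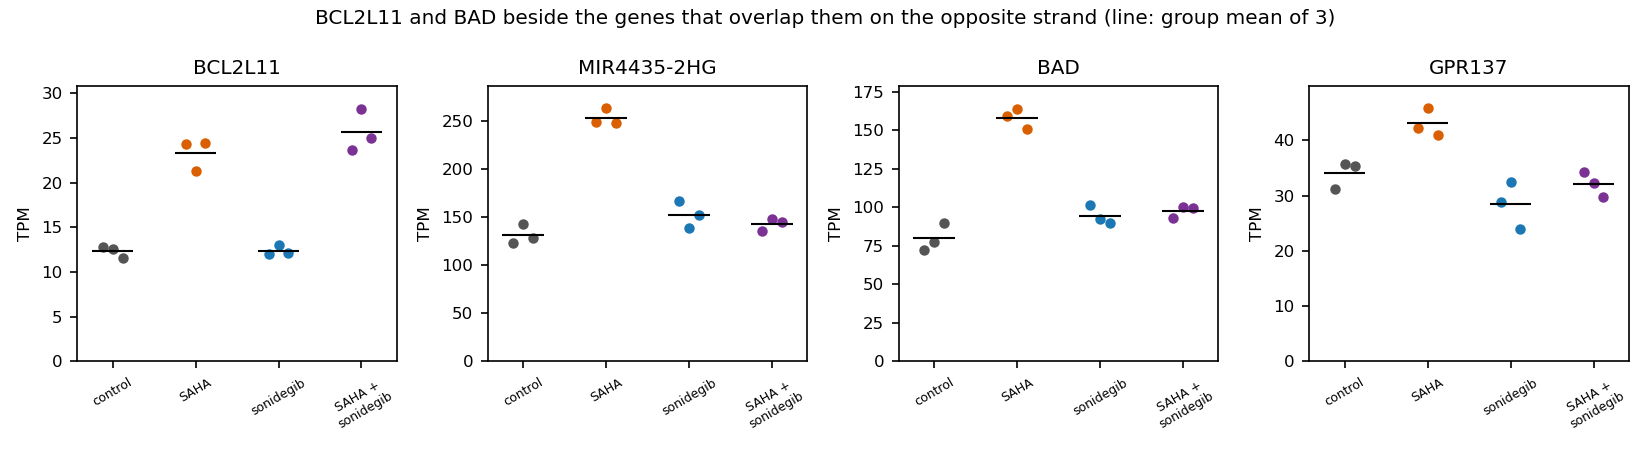
TPM (vertical axes from 0) of BCL2L11 and BAD and of the genes that overlap them on the opposite strand, MIR4435-2HG and GPR137, in the 12 libraries by treatment, with lines at the means of 3. In the combination BCL2L11 stays at 23.7 to 28.2 TPM while MIR4435-2HG lies at 136 to 148 TPM, below its SAHA values of 248 to 263 TPM.

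BMF (ENSG00000104081, chromosome 15, 40087890 to 40108892, minus strand), a BH3-only protein tethered to the cytoskeleton in healthy cells, was higher in every treated group. It measured 1.82, 3.41 and 3.22 TPM in control, 6.02, 7.36 and 6.54 with SAHA, 5.34, 5.86 and 6.49 with sonidegib, and 7.18, 9.82 and 7.74 with the combination. No treated library overlapped control. The changes against control were 1.03 ± 0.17 for SAHA alone (adjusted p = 0.000302), 0.88 ± 0.17 for sonidegib (adjusted p = 0.00107) and 1.29 ± 0.17 for the combination (adjusted p = 4.33e-05). The combination stood 0.42 ± 0.17 above sonidegib (adjusted p = 0.0761) and 0.27 ± 0.17 above SAHA (adjusted p = 0.213), neither of which passed. The first passed after quantile normalization (0.48, adjusted p = 0.0366) and without control replicate 1 (adjusted p = 0.0232). These levels are low, so the added 1 TPM makes the changes smaller than the ratios of TPM.

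BAD (ENSG00000002330, chromosome 11, 64269830 to 64284704, minus strand), a sensitizer that occupies BCL-xL when dephosphorylated, was the most abundant member in each group by mean. It measured 72.3, 77.6 and 89.9 TPM in control, 159.5, 164 and 151 with SAHA, 102, 92.2 and 89.9 with sonidegib, and 93.3, 100.2 and 99.7 with the combination. Only the 3 SAHA libraries stood far above the rest. SAHA alone raised BAD by 0.98 ± 0.078 (adjusted p = 8.74e-07), and in the combination against sonidegib the change was 0.05 with a 95% confidence interval of -0.12 to 0.22 (adjusted p = 0.666). The rise with sonidegib alone was 0.24 ± 0.078 (adjusted p = 0.0207), and its libraries overlapped control. That call was lost without control replicate 1 (adjusted p = 0.0857), control replicate 2 (adjusted p = 0.0635) or sonidegib replicate 1 (adjusted p = 0.0846), and with only the 2 groups in the fit (adjusted p = 0.0621).

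BAD shares 404 exonic bases with GPR137, a membrane protein gene on the opposite strand. GPR137 measured 31.2, 35.7 and 35.4 TPM in control, 42.3, 45.9 and 41.1 with SAHA, 28.8, 32.5 and 24.0 with sonidegib, and 34.3, 32.2 and 29.8 with the combination. It also had its highest values with SAHA alone, by 0.33 ± 0.10 on the log2 scale (adjusted p = 0.0165), a smaller difference than that of BAD. That call was lost after median-of-ratios scaling (adjusted p = 0.131) and quantile normalization (adjusted p = 0.0816), and without control replicate 1 (adjusted p = 0.0674) or SAHA replicate 2 (adjusted p = 0.0603). In the combination against SAHA the changes were -0.41 for GPR137 and -0.69 for BAD. The GPR137 call there was lost after median-of-ratios scaling (adjusted p = 0.093), 75th percentile scaling (adjusted p = 0.0511) and quantile normalization (adjusted p = 0.0924). What reads of one gene add to the other was not tested.

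BIK (ENSG00000100290, chromosome 22, 43110748 to 43129712, plus strand), a BH3-only protein of the endoplasmic reticulum, moved in opposite directions with the drugs. It measured 16.0, 15.6 and 14.6 TPM in control, 17.8, 21.9 and 20.7 with SAHA, 11.9, 9.03 and 12.4 with sonidegib, and 6.13, 6.92 and 7.57 with the combination. The 4 groups did not overlap. BIK rose by 0.37 ± 0.12 with SAHA (adjusted p = 0.0205), fell by 0.45 with sonidegib (adjusted p = 0.00804) and fell by 1.06 with the combination (adjusted p = 1.24e-05). The direction of the SAHA response thus differed with and without sonidegib: in the combination against sonidegib BIK fell by 0.61 (adjusted p = 0.00193). The rise with SAHA was lost after median-of-ratios scaling (0.28, adjusted p = 0.0577) and without control replicate 3 (adjusted p = 0.0649), SAHA replicate 2 (adjusted p = 0.0758) or SAHA replicate 3 (adjusted p = 0.0596).

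BBC3 (ENSG00000105327, chromosome 19, 47220822 to 47232766, minus strand), the activator PUMA, fell with SAHA and rose with sonidegib. It measured 3.06, 5.11 and 4.88 TPM in control, 1.67, 2.28 and 1.84 with SAHA, 10.8, 7.90 and 9.27 with sonidegib, and 4.32, 5.41 and 6.06 with the combination. SAHA libraries lay below control, sonidegib libraries above it, and combination libraries overlapped it. The changes were -0.85 ± 0.18 for SAHA (adjusted p = 0.00149), 0.96 ± 0.18 for sonidegib (adjusted p = 0.000732) and 0.24 for the combination, with a 95% confidence interval of -0.15 to 0.63 (adjusted p = 0.254). SAHA also lowered BBC3 after sonidegib, by -0.72 ± 0.18 (adjusted p = 0.00747).

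PMAIP1 (ENSG00000141682, chromosome 18, 59899948 to 59904306, plus strand), the MCL1-selective sensitizer NOXA, was higher in the groups with sonidegib. It measured 3.40, 3.68 and 5.51 TPM in control, 4.10, 4.31 and 5.65 with SAHA, 7.87, 9.30 and 10.9 with sonidegib, and 7.31, 9.42 and 11.4 with the combination. All 6 libraries with sonidegib lay above all 6 without it. Sonidegib raised it by 1.0 ± 0.19 (adjusted p = 0.000865), and the combination stood 0.86 ± 0.19 above SAHA (adjusted p = 0.00276). SAHA alone gave 0.14, with a 95% confidence interval of -0.27 to 0.56 (adjusted p = 0.547). Because this contrast coincides with the division in 5S ribosomal RNA, the drug and that division cannot be told apart for PMAIP1.

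Of the effectors, BAK1 responded to both drugs and BAX to neither alone. BAK1 (ENSG00000030110, chromosome 6, 33572547 to 33580293, minus strand) measured 45.3, 49.0 and 45.3 TPM in control, 75.8, 91.0 and 77.6 in the SAHA group, 35.6, 33.4 and 35.8 with sonidegib, and 44.2, 51.6 and 55.5 with the combination. SAHA libraries lay above control, sonidegib libraries below it, and the combination overlapped it. BAK1 rose by 0.79 ± 0.090 with SAHA (adjusted p = 1.53e-05) and by 0.51 ± 0.090 in the combination against sonidegib (adjusted p = 0.00098), and fell by 0.40 with sonidegib alone (adjusted p = 0.00263). Against control the combination gave 0.11 ± 0.090 (adjusted p = 0.316), which passed, higher, after 75th percentile scaling (0.27, adjusted p = 0.0192) and quantile normalization (0.24, adjusted p = 0.0244). Its pseudogene BAK1P1 did not exceed 0.13 TPM.

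BAX (ENSG00000087088, chromosome 19, 48954815 to 48961798, plus strand) measured 64.2, 80.7 and 81.2 TPM in control, 61.7, 76.2 and 59.6 with SAHA, 79.0, 77.4 and 79.4 with sonidegib, and 46.8, 64.4 and 66.7 with the combination. Of the 5 comparisons made, the combination against sonidegib was the one without overlap for BAX. Its changes against control were -0.19, with a 95% confidence interval of -0.50 to 0.11, for SAHA (adjusted p = 0.26) and 0.07, with an interval of -0.24 to 0.37, for sonidegib (adjusted p = 0.708). With the combination BAX fell by 0.35 against control (adjusted p = 0.0452) and by 0.42 against sonidegib (adjusted p = 0.0338). The first call was lost under 15 of 23 alternatives and the second under 6, and without combination replicate 1, the lowest library, the values were -0.19 (adjusted p = 0.188) and -0.26 (adjusted p = 0.118).

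The guardians moved apart. BCL2L1 (ENSG00000171552, chromosome 20, 31664452 to 31723989, minus strand) measured 44.0, 47.6 and 46.1 TPM in control, 44.3, 44.4 and 44.0 with SAHA, 37.0, 36.1 and 39.8 with sonidegib, and 29.9, 28.5 and 29.5 with the combination. Sonidegib libraries lay below all 6 without sonidegib, and combination libraries below those. SAHA alone left a difference of -0.05, with a 95% confidence interval of -0.17 to 0.07 (adjusted p = 0.447). BCL2L1 fell by 0.28 after sonidegib (adjusted p = 0.00102) and by 0.63 after both drugs (adjusted p = 1.29e-06). It fell by 0.35 in the combination against sonidegib (adjusted p = 0.000434). The fall with sonidegib alone was lost after 75th percentile scaling (-0.14, adjusted p = 0.06).

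MCL1 (ENSG00000143384, chromosome 1, 150574551 to 150579738, minus strand), whose protein turns over quickly and which NOXA binds, measured 56.4, 57.1 and 65.3 TPM in control, 75.6, 68.4 and 78.9 with SAHA, 71.4, 70.6 and 81.4 with sonidegib, and 79.5, 83.7 and 95.7 with the combination. Every treated library lay above every control library. The rise was 0.31 ± 0.090 after SAHA (adjusted p = 0.0105), 0.32 ± 0.090 after sonidegib (adjusted p = 0.0109) and 0.53 ± 0.090 after both (adjusted p = 0.000323). The combination exceeded SAHA by 0.21 ± 0.090 (adjusted p = 0.0703) and sonidegib by 0.21 ± 0.090 (adjusted p = 0.09), neither of which passed. Both passed after median-of-ratios scaling, at 0.35 (adjusted p = 0.000259) and 0.24 (adjusted p = 0.00451), after 75th percentile scaling, at 0.31 (adjusted p = 0.00119) and 0.24 (adjusted p = 0.00844), and after quantile normalization, at 0.39 (adjusted p = 0.000503) and 0.21 (adjusted p = 0.0249).

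**Figure D3:**
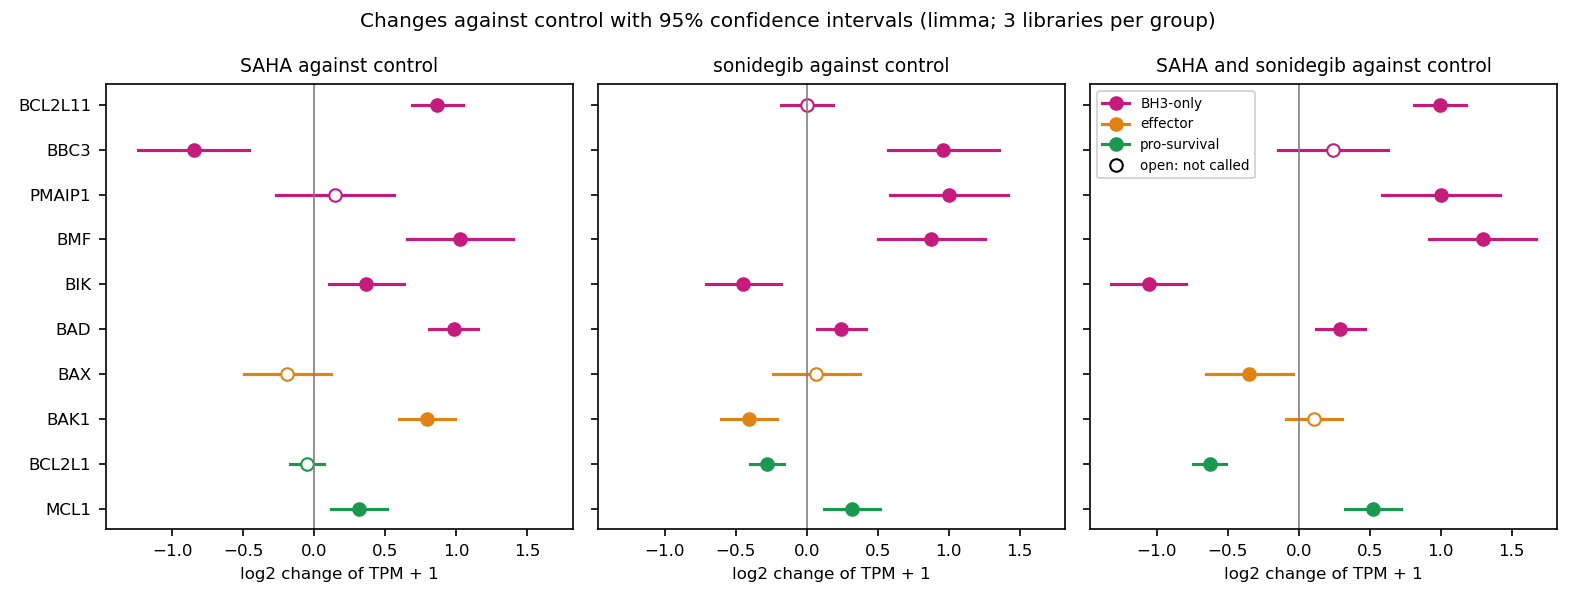
Log2 change of TPM + 1 against control (horizontal axis) for each member, with 95% confidence intervals from limma; filled points passed the test, and colours mark BH3-only, effector and pro-survival genes. MCL1 is higher in all 3 panels, BMF likewise, and BBC3 lies at -0.85 with SAHA and 0.96 with sonidegib.

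Counted together, 6 of the 10 members rose and 1 fell with SAHA, beside 58.7% of all 13937 tested genes called in that comparison (31.8% higher and 26.9% lower). The median change was 0.34 over the members and 0.05 over all tested genes. With sonidegib 5 members rose and 3 fell, beside 55.3% of all genes called (26.1% higher and 29.2% lower), at medians of 0.16 and -0.02. The combination had 5 members higher and 3 lower than control, beside 63.7% of all genes called (29.7% higher and 34.0% lower), at medians of 0.27 and -0.02. Most tested genes were called in these comparisons, so the members' counts are not read as particular to the family.

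Libraries of the compared groups did not overlap for 7 of the 10 members in each of the 5 two-group comparisons. The same held for 63.7% of all tested genes for SAHA, 62.3% for sonidegib and 66.9% for the combination against control, and for 57.0% in the combination against SAHA and 49.6% against sonidegib.

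By role, the pro-death genes did not move as a block. Of the 6 BH3-only genes 4 rose and 1 fell in each comparison with control, but with different members: BBC3 was the one that fell with SAHA, and BIK fell with sonidegib and with the combination. Of the 2 effectors, BAK1 alone rose with SAHA and alone fell with sonidegib, and BAX alone fell with the combination. Of the 2 pro-survival genes, MCL1 rose in all 3 comparisons with control, and BCL2L1 fell in the 2 with sonidegib. Since the comparisons with control share the control libraries, their values are set side by side and their likeness is no separate result.

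Summed over the members of each role, BH3-only transcripts stood at 119 ± 10.2 TPM in control cells, 215 ± 5.73 after SAHA, 143 ± 6.22 after sonidegib and 153 ± 9.81 after the combination. Effector transcripts summed to 122 ± 10.9, 147 ± 17.2, 114 ± 2.37 and 109.7 ± 16.5 TPM in the same order, and pro-survival transcripts to 105 ± 5.55, 119 ± 5.14, 112 ± 7.92 and 116 ± 8.45 TPM. The ratio of summed pro-death to summed pro-survival TPM ranged over the libraries from 2.18 to 2.37 in control, 2.83 to 3.44 with SAHA, 2.11 to 2.44 with sonidegib and 2.13 to 2.46 with the combination. By this sum only the SAHA group did not overlap control (0.42 on the log2 scale), while the combination did (-0.01). BAD carried much of this: it made up 23.0% ± 1.26 of the members' summed TPM in control and 32.9% ± 0.899 with SAHA, and without BAD the ratio ranged from 1.46 to 1.63 in control and from 1.60 to 1.99 with SAHA, which overlapped. The picture differed when each member weighed the same. The ratio of the geometric mean TPM of the 8 pro-death members to that of the 2 pro-survival members ranged from 0.261 to 0.303 in control, 0.319 to 0.382 with SAHA, 0.350 to 0.374 in the sonidegib group and 0.345 to 0.422 in the combination. By this measure all 3 treated groups lay above control without overlap, they overlapped each other, and the combination had the highest mean. No test was run on either measure.

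Ratios of single partners within a library behaved differently from the sums. The BCL2L11 to BCL2L1 ratio, an activator over a guardian that binds it, ranged from 0.252 to 0.292 in control, 0.481 to 0.555 with SAHA, 0.304 to 0.361 with sonidegib and 0.793 to 0.989 with the combination. The 4 groups did not overlap, and the combination was highest, 1.70 above control and 0.73 above SAHA on the log2 scale. In the combination BCL2L11 was thus below BCL2L1 in TPM in every library, at 0.793, 0.989 and 0.845 of it. Reads from the stretch shared with MIR4435-2HG, if any were counted for BCL2L11, would enter this ratio, which was not tested. The BMF to BCL2L1 ratio was also lowest in control, at 0.0414 to 0.0716, and highest in the combination, at 0.240 to 0.344, with the SAHA (0.136 to 0.166) and sonidegib (0.144 to 0.163) ranges overlapping each other. The BAD to BCL2L1 ratio lay between 1.63 and 1.95 in control, 3.43 and 3.69 with SAHA, 2.26 and 2.74 with sonidegib, and 3.12 and 3.51 with the combination. Although BAD itself was not higher in the combination than with sonidegib, this ratio did not overlap between those 2 groups.

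The BAX to BCL2L1 ratio overlapped between groups except for sonidegib (1.995 to 2.14), which lay above control (1.46 to 1.76) and SAHA (1.36 to 1.72), and it ranged from 1.56 to 2.26 in the combination.

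Ratios to MCL1 differed from one partner to another. The BCL2L11 to MCL1 ratio ranged from 0.178 to 0.228 in control, 0.310 to 0.321 with SAHA, 0.148 to 0.185 with sonidegib and 0.261 to 0.337 with the combination, so that both groups with SAHA lay above both without it and the combination overlapped SAHA. The PMAIP1 to MCL1 ratio ranged from 0.0602 to 0.0844 in control, 0.0542 to 0.0717 with SAHA, 0.110 to 0.133 with sonidegib and 0.0920 to 0.119 with the combination. The BBC3 to MCL1 ratio moved the other way with SAHA: it ranged from 0.0542 to 0.0896 in control, 0.0221 to 0.0333 with SAHA, 0.112 to 0.152 with sonidegib and 0.0544 to 0.0646 with the combination, where it overlapped control. The BAK1 to MCL1 ratio, an effector over a guardian known to hold it, ranged from 0.694 to 0.859 in control and 0.984 to 1.33 with SAHA, and lay below control with sonidegib (0.440 to 0.499) and with the combination (0.556 to 0.616). A ratio of BAK1 to BCL2L1, the other guardian, was not computed, so this fall is for MCL1 only. In control BAK1 lay at 45.3 to 49.0 TPM and BCL2L1 at 44.0 to 47.6 TPM. With the combination they lay at 44.2 to 55.5 and 28.5 to 29.9 TPM. The guardians' own ratio, MCL1 to BCL2L1, was 1.20 to 1.42 in control, 1.54 to 1.79 with SAHA, 1.93 to 2.05 with sonidegib and 2.66 to 3.24 with the combination, with no overlap between any groups.

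**Figure D4:**
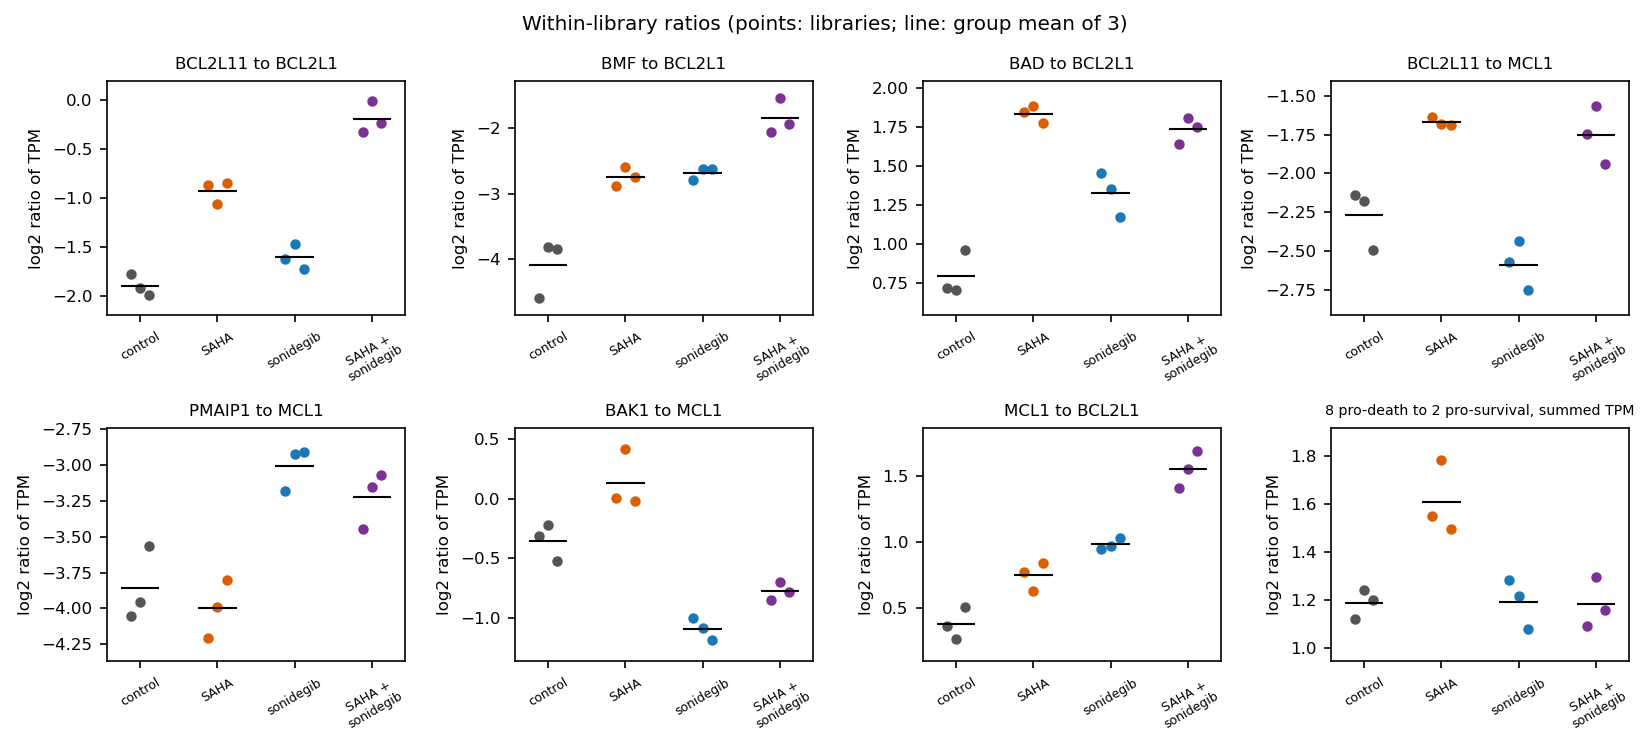
Log2 ratio of TPM within each library (vertical axes, own scale per panel) for 7 pairs of members and for the summed pro-death over pro-survival members, by treatment, with lines at the means of 3. The summed ratio is high in the SAHA group, whereas BCL2L11 to BCL2L1 and MCL1 to BCL2L1 are highest in the combination.

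The combination was next compared with each drug. Against SAHA alone 2 members rose (BBC3 and PMAIP1) and 4 fell (BIK, BAD, BAK1 and BCL2L1), beside 50.9% of all genes called (18.0% higher and 33.0% lower). BBC3 was 1.09 ± 0.18 higher (adjusted p = 0.000344), and BIK fell by 1.42 (adjusted p = 2.44e-06). BAD fell by 0.69 (adjusted p = 2.43e-05), BAK1 by 0.68 (adjusted p = 7.4e-05) and BCL2L1 by 0.58 (adjusted p = 5.6e-06). The median over all genes was -0.12 here, and median-of-ratios scaling and quantile normalization move it by 0.12 to 0.00, so falls in this comparison are smaller relative to that median. After median-of-ratios scaling, 75th percentile scaling or quantile normalization 4 members were called higher and 4 lower, BCL2L11 and MCL1 being the added ones.

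Against sonidegib alone 2 members rose (BCL2L11 and BAK1) and 4 fell (BBC3, BIK, BAX and BCL2L1), beside 38.5% of all genes called (17.5% higher and 21.0% lower). After quantile normalization 4 were called higher, BMF and MCL1 being the added ones. This comparison asks what SAHA did after sonidegib, and it shares no library with SAHA against control. A difference in time of harvest between the groups, if there was one, would be part of it. Whether the SAHA response differed between them was tested as an interaction, in which 3 members were called, all lower, beside 31.4% of all genes (11.8% higher and 19.7% lower). BIK had the largest difference among members, -0.98 ± 0.17 (adjusted p = 0.0012), BAD followed at -0.93 ± 0.11 (adjusted p = 0.000101), and BCL2L1 had -0.30 ± 0.076 (adjusted p = 0.0121). The BCL2L1 call was lost after median-of-ratios scaling (-0.18, adjusted p = 0.162). For BCL2L11 the difference was 0.12 with a 95% confidence interval of -0.13 to 0.38 (adjusted p = 0.453), and for BBC3 0.13 with an interval of -0.42 to 0.68 (adjusted p = 0.738). BMF (-0.61 ± 0.24, adjusted p = 0.077) and BAK1 (-0.28 ± 0.13, adjusted p = 0.121) did not pass.

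**Figure D5:**
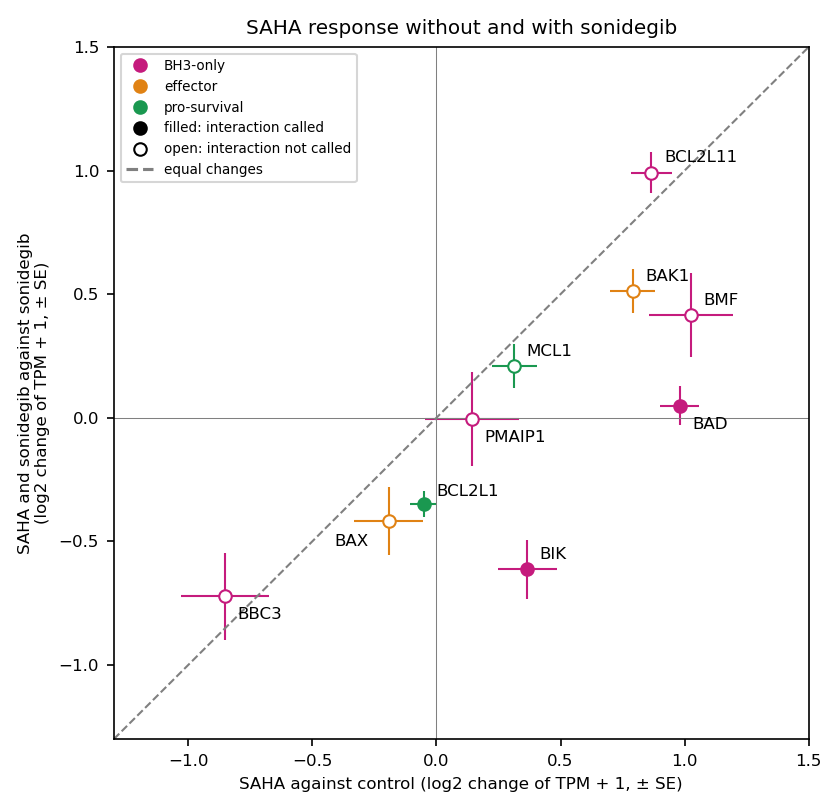
Log2 change of TPM + 1 for SAHA against control (horizontal axis) and for the combination against sonidegib (vertical axis), each ± SE, for the 10 members; the dashed line marks equal changes and filled points passed the interaction test. BIK, BAD and BCL2L1 are filled and lie below the line, while BCL2L11 and BBC3 lie near it.

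The remaining family genes came from lists chosen with earlier results of these data known, and their counts stand beside the same background: of all tested genes 58.7% were called for SAHA, 55.3% for sonidegib and 63.7% for the combination against control, at medians of 0.05, -0.02 and -0.02. Of 4 other pro-survival genes only BCL2 and BCL2L2 reached the filter, and BCL2A1 was listed at 0 in all groups. BCL2 itself was scarce, at 1.67 ± 0.269 TPM in control and 1.14 ± 0.276 TPM with the combination, and passed no test, while BCL2L2 (BCL-w) fell by 0.56 with SAHA (adjusted p = 0.000395) and stood 0.52 ± 0.097 higher in the combination than with SAHA (adjusted p = 0.000946). Of 8 tested pro-death or mixed-role relatives 2 rose and 4 fell with SAHA, 4 rose and 2 fell with sonidegib, and 4 rose and 3 fell with the combination against control, at medians of -0.19, 0.22 and 0.26. BID, the BH3-only link from death receptors to mitochondria, went from 113 ± 21.2 TPM in control to 56.9 ± 3.80 TPM with the combination (-0.96 ± 0.12, adjusted p = 2.21e-05). BOK, a relative of BAX and BAK1, fell by 0.81 with the combination (adjusted p = 1.1e-06), and BCL2L14 rose by 1.37 ± 0.13 with sonidegib (adjusted p = 6e-06). BID and BOK were called lower in the combination against control, the comparison in which BAX, BIK and BCL2L1 were also called lower.

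Downstream of the pore, 4 of 11 apoptosome genes and their inhibitors rose and 2 fell with SAHA. With sonidegib 2 rose and 1 fell, and with the combination 4 rose and 3 fell. List medians were 0.32, -0.06 and 0.19, beside 58.7%, 55.3% and 63.7% of all tested genes called. CASP9, the initiator caspase activated there, rose by 1.11 ± 0.12 with SAHA (adjusted p = 8.7e-06) and by 0.76 ± 0.12 with the combination (adjusted p = 0.000155). XIAP, which inhibits caspases, fell by 1.19 with SAHA (adjusted p = 0.000271) and by 0.69 with the combination (adjusted p = 0.00899). CYCS, the cytochrome c that the pore releases, had 362, 372 and 374 TPM in control and 136.5, 144 and 159 TPM with sonidegib (-1.33 ± 0.077, adjusted p = 1.18e-07), and 179, 189 and 206 TPM with the combination. BIRC5 (survivin), which also marks dividing cells, fell by 1.10 with SAHA (adjusted p = 1.77e-06) and rose by 0.53 ± 0.096 with sonidegib (adjusted p = 0.000621).

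At the outer membrane all 4 tested channel genes and partners fell with sonidegib (median -0.56), beside 29.2% of all genes called lower, while 1 rose and 2 fell with SAHA (median -0.19), beside 58.7% called. VDAC3 fell by 1.11 with sonidegib (adjusted p = 7.57e-08), and MTCH2, a receptor for BID, by 0.65 (adjusted p = 2.04e-06). Of 9 genes for turnover, anchoring and phosphorylation of members 5 rose and 2 fell with SAHA (median 0.33), and 0 rose and 4 fell with sonidegib (median -0.27), beside 58.7% and 55.3% of all genes called. USP9X, a deubiquitinase that stabilises MCL1 protein, rose by 0.83 ± 0.091 with SAHA (adjusted p = 1.14e-05). DYNLL1, the dynein light chain that anchors BIM, rose by 0.94 ± 0.046 with SAHA (adjusted p = 1.99e-08) and fell by 0.62 with sonidegib (adjusted p = 7.68e-07).

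Among 14 tested transcription factors known to act on members, 6 rose and 7 fell with SAHA. With sonidegib 6 rose and 4 fell, and with the combination 8 rose and 4 fell. Medians were -0.22, 0.16 and 0.22 in that order, beside 58.7%, 55.3% and 63.7% of all tested genes called. DDIT3 (CHOP), a stress factor known to act on BCL2L11, measured 5.10, 5.38 and 8.96 TPM in control, 5.50, 5.56 and 6.12 with SAHA, 53.7, 49.3 and 58.4 with sonidegib, and 70.0, 92.8 and 83.6 with the combination. The 6 libraries with sonidegib lay above the 6 without it. ATF4, which acts on PMAIP1 in the stress response, fell by 0.37 with SAHA (adjusted p = 1.09e-05) and rose by 0.30 ± 0.040 with sonidegib (adjusted p = 6.21e-05). FOXO3, a factor known to act on BCL2L11 and BBC3, rose by 0.38 ± 0.096 with SAHA (adjusted p = 0.00515). MYC and E2F1 fell with SAHA by 1.28 (adjusted p = 3.48e-07) and 1.07 (adjusted p = 1.33e-07). JUN, an AP-1 subunit, stood 1.33 ± 0.088 higher in the combination than with sonidegib (adjusted p = 1.07e-06).

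Genes whose profile over the 12 libraries was most like that of a member were found by Pearson correlation of log2(TPM + 1) over 9077 protein-coding genes whose mean reached 5 TPM. The 12 points are 4 groups of 3, so the coefficients mainly restate group differences and are given without a p. The nearest to BCL2L11 were DUSP10 (0.974), HSPA5 (0.973) and JUN (0.972), and to PMAIP1 SEC23A (0.975), APP (0.972) and LANCL1 (0.970). BMF was nearest to PDE4DIP (0.961), FCHO1 (0.957) and KHK (0.956). For BCL2L1 they were CX3CL1 (0.988), ARRB1 (0.985) and FKBP4 (0.985), and for MCL1 RAPGEF5 (0.975), HSPA13 (0.971) and ADD3 (0.968). Coefficients between members were taken only for pairs that include BCL2L11, PMAIP1, BMF, BCL2L1 or MCL1. Of these pairs BIK with BCL2L1 was closest to 1 (0.921), and MCL1 had 0.845 with BMF and -0.718 with BCL2L1.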

How the data were processed

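The 12 RNA sequencing libraries (total RNA, 1 cell line) formed 4 groups of 3 by their treatment labels. The authors deposited TPM in 1 column per library, scaled to a sum of 1000000 per library after correction for transcript length. Bowtie2 2.4.1 and GRCh38 are named per the submitters' processing notes; quantifier, annotation, strand setting and library selection are not given in the sources used here. Depth per library is unknown, so no counting interval was made.

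After adding 1 to each TPM and taking log2, 4 group means were fitted by limma 3.58.1 (R 4.3.3; lmFit, contrasts.fit, eBayes with an intensity trend, 8 residual degrees of freedom) over 13937 genes whose mean reached 1 TPM, with two-sided tests, Benjamini-Hochberg adjustment within each of 6 comparisons and a threshold of 0.05. The code was tested on simulated data. Coordinates, overlaps and gene types came from GENCODE 29 (GRCh38), and start sites from RefSeq. The members, lists and tests were chosen with earlier results of these data known. All 10 members are named; from the other lists, up to 3 called genes with the largest change per list and comparison could be named, with fixed transcription factors, 1 of which is not reported here, 3 nearest profiles for 5 members, and the expressed genes that overlap a member's exons. MIR4435-2HG and GPR137 came in by that overlap, and BCL2 and BCL2A1 outside the rule, after values were seen. Of 85 listed symbols 83 were found. Alternatives were other pseudocounts, filters, scalings, variance models, a replicate block and leaving out each library.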

Additional observations from a re-analysis of the deposited data

Results flagged for a closer look

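The SAHA response differed with and without sonidegib, by the interaction test, for 3 members and for the gene that overlaps BCL2L11. BIK had a difference of -0.98, BAD of -0.93, BCL2L1 of -0.30 and MIR4435-2HG of -1.03 on the log2 scale. The interaction compares libraries across the division in 5S ribosomal RNA, whose part was not tested.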

How the results depend on the processing

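Each of 60 member changes was recomputed under 23 alternatives (22 for the interaction). Of 38 called changes 32 kept their call and direction under all of them, and 6 lost it under at least 1. Of 22 changes not called, 6 passed under at least 1 alternative. The count of members called moved by no more than 1.5 times in any comparison, but those called higher went from 2 to 4 in the combination against SAHA under 3 scalings and against sonidegib under quantile normalization and the replicate block. Signs turned only for changes not called. PMAIP1 in the combination against sonidegib became 0.0194 after median-of-ratios scaling, 0.0211 after 75th percentile scaling, 0.0344 after quantile normalization and 0.0207 without ribosomal RNA and mitochondrial genome genes. MCL1 in the interaction became 0.0112 after median-of-ratios scaling, BCL2L1 with SAHA 0.0162 after 75th percentile scaling and 0.00261 without those genes, and BAX in the combination against SAHA 0.0234 after quantile normalization. Leaving out 1 library gave -0.0374 to 0.0303 for BCL2L11 and -0.0426 to 0.125 for BAX with sonidegib, -0.25 to 0.00157 for BAX in the combination against SAHA, -0.142 to 0.145 for PMAIP1 in the combination against sonidegib, and -0.321 to 0.00313 for PMAIP1 in the interaction. The cause was not tested.

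Scaling also moved the split of calls over all genes: the share of calls that were higher went from 35.3% to 49.6% after median-of-ratios scaling in the combination against SAHA, from 37.5% to 53.4% in the interaction, and after 75th percentile scaling from 47.2% to 59.2% for sonidegib and from 46.6% to 57.8% for the combination against control. That last scaling moved the median of all genes by 0.12 for sonidegib and 0.14 for the combination.

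The labels repeat replicate numbers across groups. Deviations from group means of same-numbered libraries correlated at -0.0586 to 0.111 over 18 pairs. Libraries with different numbers gave -0.107 to 0.0966 over 36 pairs. A library's best match in another group had its own number in 13 of 36 cases. These values over all genes cannot exclude a pairing, so whether the numbers pair the samples is not known. Over all tested genes, calls rose with a replicate block in each comparison, for sonidegib from 7712 to 8076. For the combination against sonidegib they rose from 5370 to 5817. With the replicate block, members called numbered 7 for SAHA, 8 for sonidegib, 8 for the combination against control, 7 against SAHA, 8 against sonidegib and 4 in the interaction. No call was lost, and MCL1 in the combination against SAHA (adjusted p = 0.00624 by limma) and against sonidegib (adjusted p = 0.00915), BMF against sonidegib (adjusted p = 0.0228) and BMF in the interaction (adjusted p = 0.0236) were gained.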
